A study of Mus musculus with 8 samples.

Results

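Matrix metalloproteinases (MMPs) and tissue inhibitors of metalloproteinases (TIMPs) were followed in bone marrow derived macrophages (BMDMs) as 10 genes, the 7 proteases Mmp2, Mmp8, Mmp9, Mmp12, Mmp13, Mmp14 and Mmp19 and the 3 inhibitors Timp1, Timp2 and Timp3. They were taken by symbol from the 53735 genes of the count tables. RNA-seq covered 8 libraries, 4 from wild-type mice (WT, Mkl1+/+, Apoe-/-) and 4 from MKL1 global knockout mice (KO, Mkl1-/-, Apoe-/-), made in 2 experiments that each held 2 libraries per genotype. WT libraries 1 and 2 and KO libraries 5 and 6 formed experiment 1, and WT libraries 3 and 4 and KO libraries 7 and 8 formed experiment 2. MKL1 (also MRTFA) is a coactivator of serum response factor. Both genotypes lacked Apoe, were male, 6 months old, and had received angiotensin II (Ang II) from osmotic minipumps at 1.44 mg/kg/day for 7 days, so there was no group without Ang II. Bone marrow cells were then differentiated in culture for 7 days, away from the aorta and from the infusion. The knockout was global, so the marrow had developed in an animal without MKL1 in any tissue. The labels do not say whether each library came from 1 mouse, and the p-values measure only the spread between these libraries.

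MMPs are secreted or membrane-bound zinc endopeptidases that are made as inactive precursors and together cleave collagens, elastin, gelatin and many non-matrix proteins. TIMPs bind the active site of the enzymes and block them. In the wall of an aneurysm, macrophages are a known source of MMPs, and the balance of MMPs and TIMPs is thought to set how fast elastin and collagen are lost. RNA levels do not report on activation of the precursors or on inhibition of the enzymes.

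The libraries held between 33977799 and 41584540 counts. Levels are given in CPM, which are counts scaled to the total of the library after adjustment of that total by TMM. Mkl1, the targeted gene, was at 25.7, 27.1, 26.9 and 29.7 CPM in WT libraries 1 to 4. It was at 19.3 and 20.7 CPM in KO libraries 5 and 6 and 14.6 and 10.5 CPM in KO libraries 7 and 8. All 4 KO libraries were lower than all 4 WT libraries, but Mkl1 reads were present in each KO library (two-sided exact permutation test, p = 0.0286 over 70 arrangements and 0.0556 over the 36 arrangements within experiments, the smallest each can give). The 10 macrophage markers summed to between 17154 and 37108 CPM, led by Lyz2 (lysozyme) and Adgre1 (F4/80), and every one of them passed the filter on low counts. The 10 neutrophil markers summed to at most 1.53 CPM, with Retnlg at 0 counts. The 10 fibroblast markers (collagens, Dcn, Pdgfra and others, led by Col1a2 and Fbn1) summed to 219 and 281 CPM in KO libraries 5 and 6 and to between 3.16 and 18.4 CPM in the other 6 libraries, so the KO libraries of experiment 1 stood apart. Over the 15618 genes tested, the WT libraries of experiment 1 and the KO libraries of experiment 2 were the closest pair of groups, with an SD of the log2 difference of 0.43 and 535 genes more than 2-fold apart. For the other pairs of groups, the same genotype in both experiments included, the SD ran from 0.87 to 1.10 and the number of genes from 2299 to 3241. An exchange of labels would turn the direction of the differences between KO and WT. Mkl1 lay on the side that the labels give in both experiments, and the labels were used as given.

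All 10 genes passed the filter on low counts. To compare levels between genes, CPM were divided by the length of the gene's exons in kilobases (RPKM). Timp2, an inhibitor that also takes part in the activation of MMP2 at the cell surface, had the highest mean level over the 8 libraries, at 70.4 RPKM (range 43.0 to 101). Mmp12, the macrophage metalloelastase, was next at 40.7 RPKM (13.7 to 82.7). The ranges of Timp2 and Mmp12 overlapped. Mmp19, a secreted protease of wide tissue distribution, was at 10.5 RPKM (5.01 to 13.7), Mmp14 at 8.12 RPKM (0.918 to 25.9) and Timp1 at 7.04 RPKM (0.651 to 21.2). Mmp13 at 4.82 RPKM (3.53 to 7.05) and Mmp8 at 3.55 RPKM (0.666 to 5.04) followed. Mmp9 was at 1.222 RPKM (0.196 to 2.32), Mmp2 at 1.07 RPKM (0.0429 to 3.66) and Timp3 at 0.849 RPKM (0.130 to 2.52). Each neighbour in this order overlapped the next in range, with the lowest Mmp12 and the highest Mmp19 both at 13.7 RPKM. With the length of the principal transcript in place of all exons, the mean of Mmp12 became 81.6 RPKM and that of Mmp14 18.6 RPKM, so that Mmp12 passed Timp2 (73.9 RPKM) and Mmp14 passed Mmp19 (10.9 RPKM). Timp3 (1.46 RPKM) then stood above Mmp9 (1.36 RPKM) and Mmp2 (1.17 RPKM).

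**Figure D1:**
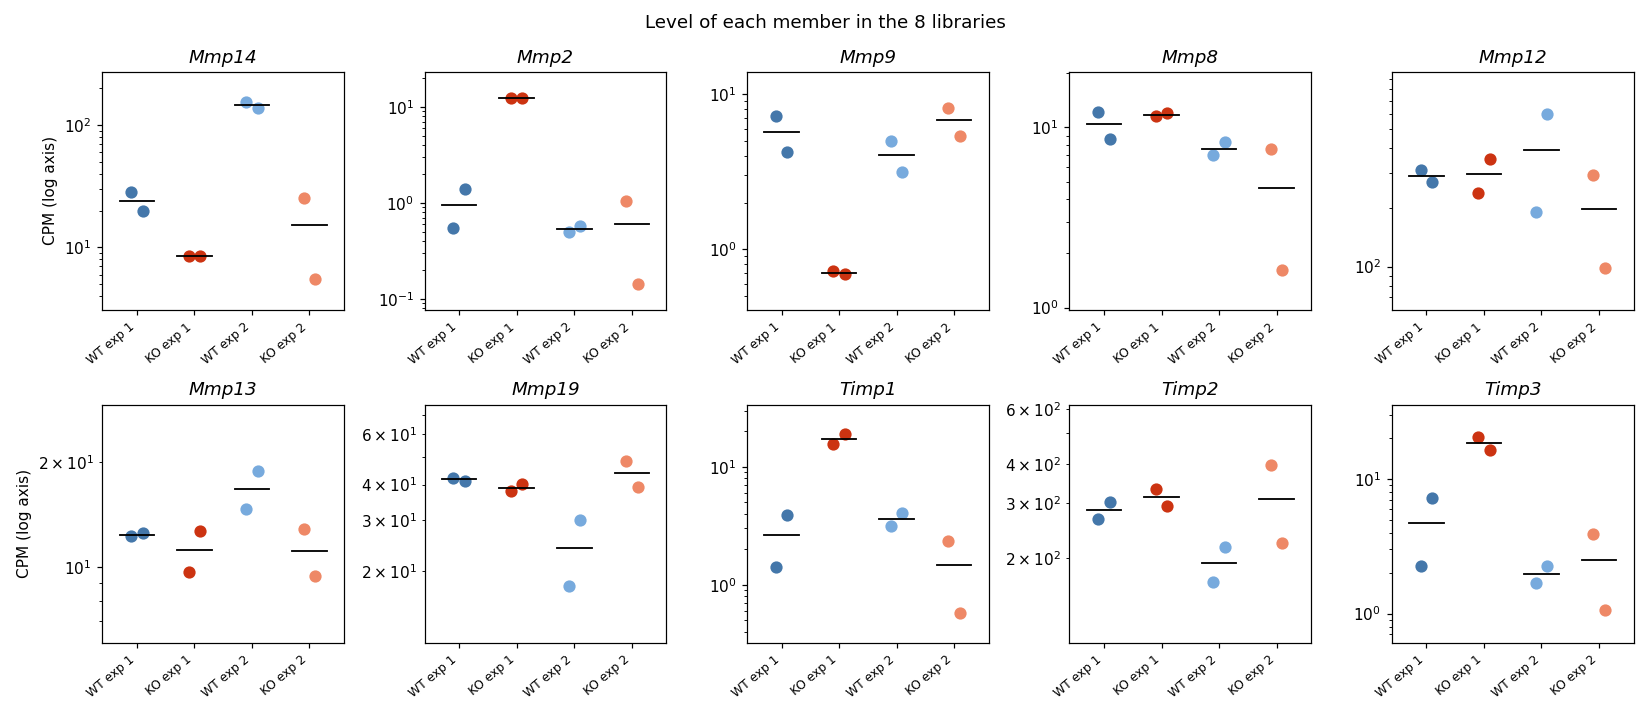
Level of each gene in CPM (log axis) in the 8 libraries, in columns for WT and KO of experiment 1 and of experiment 2; each point is a library and each line the mean of 2 libraries. Mmp14 was lower in KO than in WT within both experiments, Mmp9 lay on opposite sides in the 2 experiments, and Mmp2, Timp1 and Timp3 were highest in the KO libraries of experiment 1.

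The sum over the 7 proteases was 71.3 and 62.2 RPKM in WT and 57.0 and 75.4 RPKM in KO of experiment 1. In experiment 2 it was 67.1 and 126 RPKM in WT and 69.1 and 31.5 RPKM in KO. The genotypes overlapped in both experiments, but with the length of the principal transcript the sum of experiment 2 was 128 and 239 RPKM in WT and 116 and 47.0 RPKM in KO, without overlap. Mmp12 made up between 39.2% and 65.8% of the sum (41.4% to 77.3% with principal transcripts). Mmp14 made up 38.5% and 18.3% of it in WT libraries 3 and 4 and between 1.89% and 6.65% in the other 6 libraries. The sum over the 3 inhibitors was 70.004 and 82.7 RPKM in WT against 105 and 98.7 RPKM in KO of experiment 1, and 46.8 and 60.4 RPKM in WT against 105 and 58.0 RPKM in KO of experiment 2. Timp2 accounted for 80.8% and 76.4% of it in KO libraries 5 and 6 and for at least 92.0% elsewhere. The ratio of MMP to TIMP transcripts was 1.02 and 0.753 in WT and 0.542 and 0.764 in KO of experiment 1, which overlapped, and 1.43 and 2.08 in WT and 0.661 and 0.543 in KO of experiment 2, which did not. With the length of the principal transcript these ratios were 1.42 to 1.81 times as high, at 1.64 and 1.201 in WT and 0.830 and 1.225 in KO of experiment 1 and at 2.60 and 3.77 in WT and 1.06 and 0.771 in KO of experiment 2, and the genotypes again overlapped in experiment 1 and not in experiment 2. These sums are descriptions and carry no test.

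**Figure D2:**
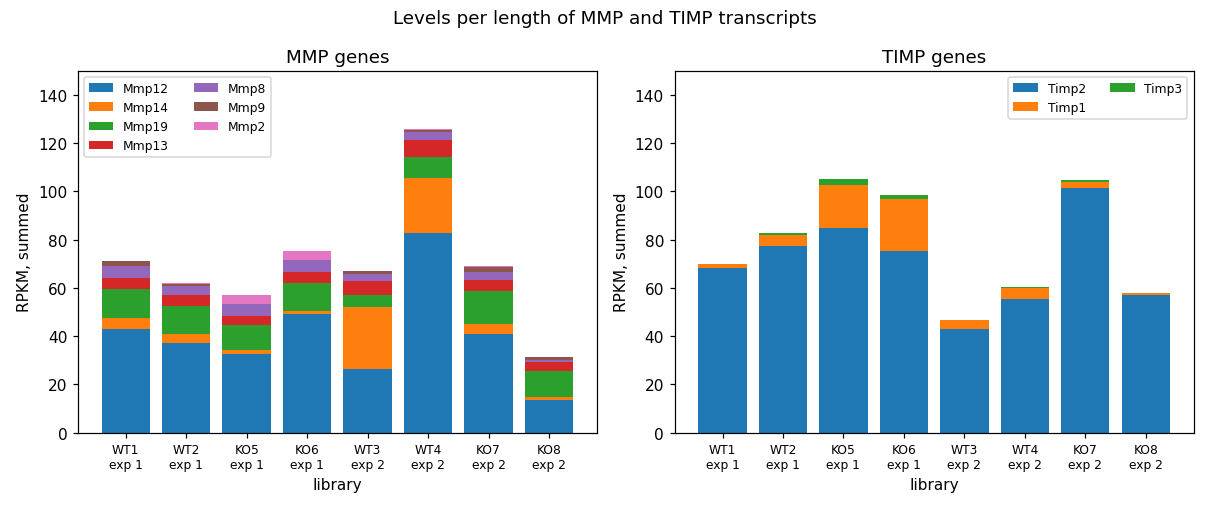
Summed levels per exon length (RPKM, bars from 0, 1 bar per library) of the 7 MMP genes (left) and the 3 TIMP genes (right), split by gene. With these exon lengths Mmp12 and Timp2 form the largest block of their bar in every library, whereas with principal transcripts Mmp14 (59.4 RPKM) exceeds Mmp12 (52.8 RPKM) in WT library 3; the Mmp14 block is tallest in WT libraries 3 and 4.

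The region upstream of the start is shown for a protease that fell in experiment 1 (Mmp14), for an inhibitor that rose there (Timp1), and for 2 neighbours on chromosome 9 that passed the test in neither experiment (Mmp12 and Mmp13). RefSeq windows (build GRCm38.p6) were matched for 7 of the 10 genes. Mmp2, Mmp9 and Mmp19 had no entry. Each sequence is the 250 bases before the start, all on the plus strand, in lower case with motif matches in capitals. The motifs searched on both strands were the AP-1 motif (TGANTCA, a palindrome but for its middle base), the GC box (GGGCGG), the TATA motif (TATAAA) and the CArG box, the site of serum response factor. Matches of different motifs did not overlap. The windows span chr14:54431348-54431597 (Mmp14), chrX:20869916-20870165 (Timp1), chr9:7272264-7272513 (Mmp13) and chr9:7347124-7347373 (Mmp12, the downstream of 2 starts).
Mmp14: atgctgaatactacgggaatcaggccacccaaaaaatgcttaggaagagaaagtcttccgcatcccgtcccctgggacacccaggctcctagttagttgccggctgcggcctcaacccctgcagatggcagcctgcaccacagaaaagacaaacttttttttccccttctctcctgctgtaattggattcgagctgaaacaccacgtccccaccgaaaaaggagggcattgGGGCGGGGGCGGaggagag
Timp1: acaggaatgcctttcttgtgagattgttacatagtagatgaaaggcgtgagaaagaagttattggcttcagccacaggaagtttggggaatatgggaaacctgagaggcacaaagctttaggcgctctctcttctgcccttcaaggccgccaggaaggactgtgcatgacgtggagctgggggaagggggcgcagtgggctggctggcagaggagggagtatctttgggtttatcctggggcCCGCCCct
Mmp13: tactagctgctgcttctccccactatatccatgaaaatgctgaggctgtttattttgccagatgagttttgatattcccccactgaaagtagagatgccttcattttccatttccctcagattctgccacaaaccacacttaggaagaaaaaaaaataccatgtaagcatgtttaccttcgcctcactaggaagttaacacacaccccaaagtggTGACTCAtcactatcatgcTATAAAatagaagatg
Mmp12: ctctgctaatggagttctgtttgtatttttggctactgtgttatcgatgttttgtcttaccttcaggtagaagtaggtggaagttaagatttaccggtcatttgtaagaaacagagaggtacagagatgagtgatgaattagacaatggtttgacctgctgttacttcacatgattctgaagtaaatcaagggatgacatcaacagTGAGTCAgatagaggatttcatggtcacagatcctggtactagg
Mmp14 held 2 GC boxes, 19 to 14 and 13 to 8 bases before the start, and Timp1 held 1, on the opposite strand, 8 to 3 bases before the start. Timp2 and Timp3 also held 1 GC box each, so every TIMP window had one, and of the MMP windows only that of Mmp14 did. Mmp13 held an AP-1 motif 35 to 29 bases and a TATA motif 16 to 11 bases before the start. The Mmp12 window held an AP-1 motif 44 to 38 bases before the start, and the window of the other Mmp12 start (chr9:7344147-7344396) held none of the motifs, nor did that of Mmp8. No CArG box was found in these 8 windows. Of 32851 RefSeq windows of the same length, 6.75% held the AP-1 motif, 32.7% the GC box, 12.4% the TATA motif and 1.47% the CArG box. A match describes the letters in this window and is not a measured site.

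KO was compared with WT within each experiment, as the labels describe, by the quasi-likelihood test of edgeR, with p-values adjusted by Benjamini-Hochberg over the 15618 genes tested and a threshold of 0.05. In experiment 1, 4 of the 10 genes passed. Mmp9 and Mmp14 fell and Mmp2 and Timp1 rose. Among all genes tested 54.2% passed, 27.4% lower and 26.8% higher in KO, so 2 and 2 of 10 is close to the background. In experiment 2 none of the 10 genes passed, where 15.1% of all genes did, 8.00% lower and 7.10% higher. At an unadjusted p under 0.05, edgeR counted 3 (Mmp13, Mmp14 and Mmp19), beside 32.7% of all genes. At an adjusted p under 0.05, DESeq2 called 2 (20.1% of all genes) and limma-voom 1 (14.0%). In the fit of both experiments together, with experiment as an additive term, 0 of the 10 passed, against 6.85% of all genes, 3.26% lower and 3.59% higher. Here edgeR counted 1 (Mmp14) at an unadjusted p under 0.05, beside 25.0% of all genes, and at an adjusted p under 0.05 DESeq2 called 1 (16.4% of all genes) and limma-voom 1 (7.68%). The median log2 fold change of the 10 genes was 0.07 in experiment 1 and -0.22 in experiment 2, beside 0.02 and 0.00 for all genes tested. With upper-quartile scaling the median of all genes in experiment 1 rose by 0.11 to 0.13. The share of the called genes that were higher in KO then went from 49.4% to 61.1% in experiment 1 and from 52.4% to 65.0% in both experiments together.

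The difference between the 2 within-experiment effects was tested as the interaction of genotype and experiment. It passed for 4 of the 10 genes, Mmp2, Mmp9, Mmp19 and Timp1, while 39.8% of all genes passed. In 5 of the 10 genes the log2 fold change had opposite signs in the 2 experiments, as in 54.3% of all genes tested. The libraries of the genotypes did not overlap for 6 of the 10 genes within experiment 1 and for 6 within experiment 2, beside 79.5% and 64.0% of all genes tested. Over both experiments, 0 of the 10 genes had every KO library on the same side of every WT library, beside 12.0% of all genes. KO library 8 had the lowest level of the 8 libraries for 7 of the 10 genes (Mmp2, Mmp8, Mmp12, Mmp13, Mmp14, Timp1 and Timp3) and for 14.0% of all genes tested. Where leaving it out changed a call, the value without it is given beside the result.

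**Figure D3:**
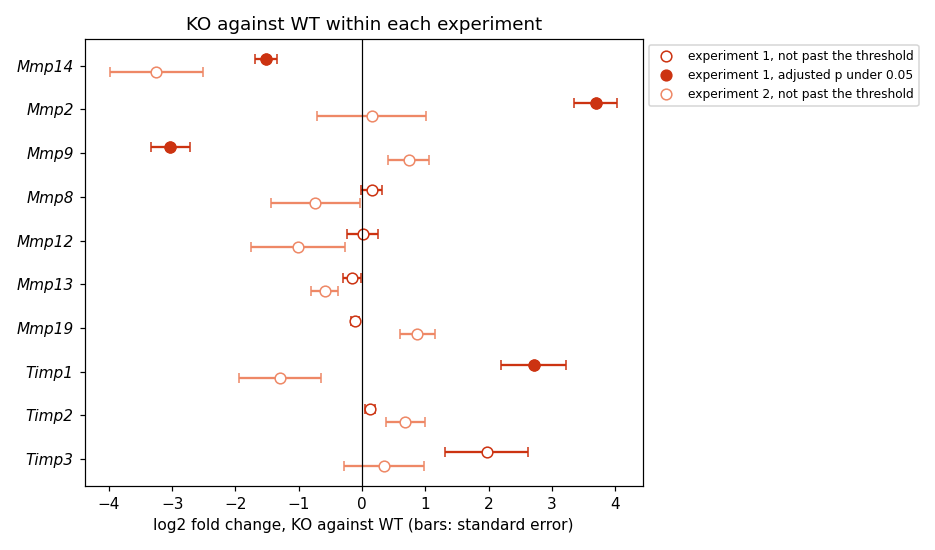
Log2 fold change of KO against WT (horizontal axis, bars are standard errors) for the 10 genes, experiment 1 in dark and experiment 2 in light red, filled where the adjusted p of edgeR was under 0.05. The 4 filled points (Mmp14, Mmp2, Mmp9 and Timp1) all belong to experiment 1, and Mmp14 lies left of 0 in both experiments.

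Mmp14 encodes the membrane-anchored collagenase that activates the MMP2 precursor in a complex with TIMP2, and lies on chr14:54431612-54445364 (GRCm38, GENCODE M21, plus strand, as for all coordinates here but those of Timp2). It was at 28.2 and 20.0 CPM in WT and 8.51 and 8.49 CPM in KO of experiment 1. In experiment 2 it was at 154 and 137 CPM in WT and 25.2 and 5.47 CPM in KO. KO lay below WT within each experiment, but KO library 7 was above WT library 2. In experiment 1 the level fell 2.87-fold (log2 fold change -1.52, standard error 0.17, edgeR adjusted p = 0.000508). In experiment 2 the difference was 9.51-fold (log2 fold change -3.25, standard error 0.73) and narrowly missed the threshold (edgeR adjusted p = 0.0516). It passed in 7 of 11 alternatives there, among them the fits without KO library 7 (log2 fold change -4.73, edgeR adjusted p = 0.0200) and without KO library 8 (-2.53, edgeR adjusted p = 0.0294). It did not pass without WT library 3 (edgeR adjusted p = 0.138), without WT library 4 (0.133), with no filter (0.346) or at a threshold of 0.01. The combined difference was -2.38 (standard error 0.57, edgeR adjusted p = 0.0536), and -1.90 without KO library 8 (edgeR adjusted p = 0.0178). The call in experiment 1 was lost where all 4 groups shared an estimate of the spread (edgeR adjusted p = 0.0656). The interaction was -1.74 (standard error 0.78, edgeR adjusted p = 0.111), and passed without KO library 7 (-3.23, edgeR adjusted p = 0.000499) and without KO library 8 (-1.03, edgeR adjusted p = 0.0270). The WT mean of experiment 2 was 6.05 times that of experiment 1, a wider gap than between the genotypes in experiment 1. Per Timp2 transcript on the RPKM scale, Mmp14 stood at 0.601 and 0.414 in WT libraries 3 and 4 and between 0.0160 and 0.0695 in the other 6 libraries, or at 1.31 and 0.905 and between 0.0351 and 0.152 with principal transcripts. Mmp14 is among the genes that the study singled out from these libraries, so its direction is not independent evidence.

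The gelatinases Mmp2 (gelatinase A, chr8:92827291-92853420) and Mmp9 (gelatinase B, chr2:164940780-164955850) digest denatured collagen and basement membrane collagen. Mmp2 was at 0.542 and 1.38 CPM in WT and 12.3 and 12.3 CPM in KO of experiment 1. It was at 0.494 and 0.577 CPM in WT and 1.05 and 0.145 CPM in KO of experiment 2. Both KO libraries of experiment 1 were far above the other 6, and in experiment 2 the KO libraries lay on either side of the WT libraries. Mmp2 rose 13.0-fold in experiment 1 (log2 fold change 3.70, standard error 0.34, edgeR adjusted p = 0.000348), and the log2 fold change was 3.14 without WT library 1 and 4.48 without WT library 2. In experiment 2 the log2 fold change was 0.16 (standard error 0.86, edgeR adjusted p = 0.923), and -1.86 without KO library 7 or 0.97 without KO library 8. The effects differed by -3.54 (standard error 1.00, edgeR adjusted p = 0.0257), a call that was lost without WT library 1 (edgeR adjusted p = 0.0808), 3 (0.0579) or 4 (0.106) or KO library 5 (0.0894) or 6 (0.0880). It passed at -4.34 without WT library 2, -5.56 without KO library 7 and -2.73 without KO library 8.

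Mmp9 was at 7.20 and 4.26 CPM in WT and 0.723 and 0.693 CPM in KO of experiment 1. In experiment 2 it was at 4.97 and 3.17 CPM in WT and 8.21 and 5.38 CPM in KO. The genotypes did not overlap in either experiment, with KO below WT in experiment 1 and above it in experiment 2. Mmp9 fell 8.18-fold in experiment 1 (log2 fold change -3.03, standard error 0.31, edgeR adjusted p = 0.000137), and was called under each of the 11 alternatives. In experiment 2 the log2 fold change was 0.74 (standard error 0.32, edgeR adjusted p = 0.180), with values from 0.40 without KO library 7 to 1.10 without WT library 3. The effects differed by 3.75 (standard error 0.51, edgeR adjusted p = 0.00135), which passed under each of 14 alternatives. In the KO libraries of experiment 1 the RNA of the 2 gelatinases thus lay on opposite sides of WT.

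The interstitial collagenases Mmp8 (neutrophil collagenase, chr9:7558456-7568485) and Mmp13 (chr9:7272514-7283331) cleave fibrillar collagen. Mmp8 was at 12.2 and 8.63 CPM in WT and 11.5 and 12.0 CPM in KO of experiment 1, and at 7.00 and 8.25 CPM in WT and 7.55 and 1.61 CPM in KO of experiment 2. The genotypes overlapped in both experiments, and KO library 8 was the low sample. The log2 fold changes were 0.15 (standard error 0.16, edgeR adjusted p = 0.463) and -0.74 (standard error 0.71, edgeR adjusted p = 0.524). That of experiment 1 was -0.071 without WT library 2 and 0.43 without WT library 1, which passed (edgeR adjusted p = 0.0400), and that of experiment 2 was -2.23 without KO library 7 (edgeR adjusted p = 0.0429) and -0.015 without KO library 8 (edgeR adjusted p = 0.975). The interaction for Mmp8 was -0.91 (edgeR adjusted p = 0.377) and also passed without KO library 7 (-2.40, edgeR adjusted p = 0.00175), and was -0.18 without KO library 8. Mmp8 was measured where neutrophil markers were at most 1.53 CPM in sum.

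Mmp13 was at 12.3 and 12.5 CPM in WT and 9.71 and 12.7 CPM in KO of experiment 1, and at 14.7 and 18.8 CPM in WT and 12.8 and 9.45 CPM in KO of experiment 2. Relative to its lowest level, its range over the 8 libraries was the narrowest of the 7 proteases. The genotypes overlapped in experiment 1 and not in experiment 2. The log2 fold changes were -0.16 (standard error 0.14, edgeR adjusted p = 0.354) and -0.59 (standard error 0.21, edgeR adjusted p = 0.123), and that of experiment 1 was 0.017 without KO library 5 and -0.37 without KO library 6 (edgeR adjusted p = 0.0451).

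Mmp12, the metalloelastase that macrophages secrete, lies on chr9:7344381-7369499. It was at 309 and 270 CPM in WT and 236 and 355 CPM in KO of experiment 1. In experiment 2 it was at 191 and 599 CPM in WT and 295 and 98.9 CPM in KO. Replicate libraries of experiment 2 differed 3.14-fold in WT and 2.98-fold in KO, and the genotypes overlapped in both experiments. The log2 fold changes were 0.01 (standard error 0.24, edgeR adjusted p = 0.967) and -1.005 (standard error 0.74, edgeR adjusted p = 0.411). Its direction in experiment 1 rested on single libraries, at 0.28 without KO library 5 (edgeR adjusted p = 0.0329) and -0.31 without KO library 6 (edgeR adjusted p = 0.0190), and that of experiment 2 was -1.61 without WT library 3, 0.045 without WT library 4 and -2.00 without KO library 7. The exons of Mmp12 share 157 bases with Mmp1b, which had 1 count over all libraries.

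Mmp19, on chr10:128790910-128800824, was at 42.2 and 41.3 CPM in WT and 38.0 and 40.1 CPM in KO of experiment 1, and at 17.7 and 30.1 CPM in WT and 48.3 and 39.4 CPM in KO of experiment 2. KO lay just below WT in experiment 1 and above it in experiment 2, without overlap in either. The log2 fold changes were -0.11 (standard error 0.07, edgeR adjusted p = 0.183) and 0.87 (standard error 0.28, edgeR adjusted p = 0.0998). That of experiment 2 was 0.54 without WT library 3 (edgeR adjusted p = 0.200) and 1.31 without WT library 4 (edgeR adjusted p = 0.0290), and it also passed with DESeq2 (adjusted p = 0.0197) and with 4 groups in 1 edgeR fit (adjusted p = 0.0204). The effects differed by 0.97 (standard error 0.31, edgeR adjusted p = 0.0392). That call was lost in 8 of 14 alternatives, namely upper-quartile scaling, a threshold of 0.01 and leaving out WT library 1 (edgeR adjusted p = 0.105), WT library 2 (0.0958), KO library 5 (0.136), KO library 6 (0.112), KO library 7 (0.115) or KO library 8 (0.0582). Mmp19 shares 789 exon bases with Tmem198b on the opposite strand, and the strand setting of the counting is not given in the sources used here, so their reads cannot be told apart.

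Timp1, on chrX:20870166-20874735, encodes a secreted inhibitor that binds the MMP9 precursor. It was at 1.41 and 3.90 CPM in WT and 15.7 and 18.9 CPM in KO of experiment 1, and at 3.16 and 4.07 CPM in WT and 2.37 and 0.579 CPM in KO of experiment 2. KO lay above WT in experiment 1 and below it in experiment 2, without overlap in either. Timp1 rose 6.57-fold in experiment 1 (log2 fold change 2.71, standard error 0.51, edgeR adjusted p = 0.0212), and the log2 fold change was 2.13 without WT library 1 and 3.602 without WT library 2. That call was lost without KO library 5 (edgeR adjusted p = 0.201), without KO library 6 (edgeR adjusted p = 0.211) and with no filter on low counts (edgeR adjusted p = 0.141). In experiment 2 the log2 fold change was -1.29 (standard error 0.65, edgeR adjusted p = 0.236), and -2.63 without KO library 7 (edgeR adjusted p = 0.0525) or -0.61 without KO library 8. The effects differed by -4.01 (standard error 0.85, edgeR adjusted p = 0.00850), by -3.86 without KO library 6 (edgeR adjusted p = 0.0521), and by -4.91 without WT library 2, -5.35 without KO library 7 and -3.33 without KO library 8, which passed.

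Timp3, on chr10:86300372-86349506, encodes an inhibitor that binds to the extracellular matrix and also blocks ADAM17. It was at 2.24 and 7.22 CPM in WT and 20.5 and 16.4 CPM in KO of experiment 1, and at 1.68 and 2.25 CPM in WT and 3.93 and 1.06 CPM in KO of experiment 2. The genotypes did not overlap in experiment 1, but the WT libraries there differed 3.22-fold. The difference was 3.92-fold in experiment 1 (log2 fold change 1.97, standard error 0.66, edgeR adjusted p = 0.102). It passed in 5 of 11 alternatives, including DESeq2 (adjusted p = 0.0331) and the edgeR fits without WT library 1 (log2 fold change 1.33, adjusted p = 0.000835) and without WT library 2 (3.02, adjusted p = 3.66e-05). In experiment 2 the log2 fold change was 0.35 (standard error 0.63, edgeR adjusted p = 0.744), and -0.88 without KO library 7 or 1.002 without KO library 8.

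Timp2, on the minus strand of chr11:118301069-118355740, was at 265 and 301 CPM in WT and 331 and 294 CPM in KO of experiment 1, and at 168 and 216 CPM in WT and 395 and 223 CPM in KO of experiment 2. The genotypes overlapped in experiment 1 and were only just apart in experiment 2. The log2 fold changes were 0.13 (standard error 0.08, edgeR adjusted p = 0.246) and 0.69 (standard error 0.30, edgeR adjusted p = 0.192). That of experiment 2 was 0.22 without KO library 7 and 1.04 without KO library 8. The effects differed by 0.54 (edgeR adjusted p = 0.252), by 0.078 without KO library 7 (edgeR adjusted p = 0.794) and by 0.90 without KO library 8 (edgeR adjusted p = 0.0216).

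Mmp2, Timp1 and Timp3 had their highest levels in KO libraries 5 and 6, where the fibroblast markers were highest as well. Of the 10 fibroblast markers, 8 were tested and 8 rose in experiment 1, beside 26.8% of all genes tested, the median being 4.93 on the log2 scale. In experiment 2, 0 of the 8 passed in edgeR, beside 15.1% of all genes tested. At an unadjusted p under 0.05, 1 of the 8 did, beside 32.7%. The median log2 fold change of the 8 in experiment 2 was -0.27. The remaining markers, Lum and Thy1, had at most 2 and 4 counts in any library. Experiment 2 gives the values of the 10 genes without KO libraries 5 and 6. By root mean square difference of centred log2 CPM over the 8 libraries, Mmp2, Timp1 and Timp3 were the closest of the 10 to the mean of the fibroblast markers (Mmp2 at 0.51, Timp1 at 0.78 and Timp3 at 1.02, beside 1.75 to 3.33 for the other 7). These 3 genes were named for their peak in KO libraries 5 and 6, which also enter this measure, so their closeness is not separate evidence. Among the other 6 libraries, KO library 8 had both the lowest marker sum and the lowest level of the 3 genes. Mmp2 and Timp3 were highest of those 6 in WT library 2 (13.1 CPM of markers), and lower in WT library 3 (18.4 CPM). The part of these cells in the levels of Mmp2, Timp1 and Timp3 was not tested, and in bulk RNA a change in the number of cells of a type and a change in RNA per cell cannot be told apart. Mmp14 did not follow the marker sum, being at 8.51 and 8.49 CPM where the markers were highest and at 154 and 137 CPM where they were at 18.4 and 15.7 CPM. Mmp14 was highest in WT libraries 3 and 4, where the summed dendritic cell markers (6.84 and 5.19 CPM, led by Ccl22) were also higher than in the other 6 libraries (0.708 to 1.04 CPM). That sum rested on Ccl22, a chemokine, with 187 and 136 counts there and at most 6 elsewhere. Zbtb46, the next most abundant marker, had 24 and 21 counts there and 12 to 25 elsewhere. The rest had at most 18 counts in any library, and Flt3 and Cd209a at most 3. The part of dendritic cells in the Mmp14 level was not tested.

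**Figure D4:**
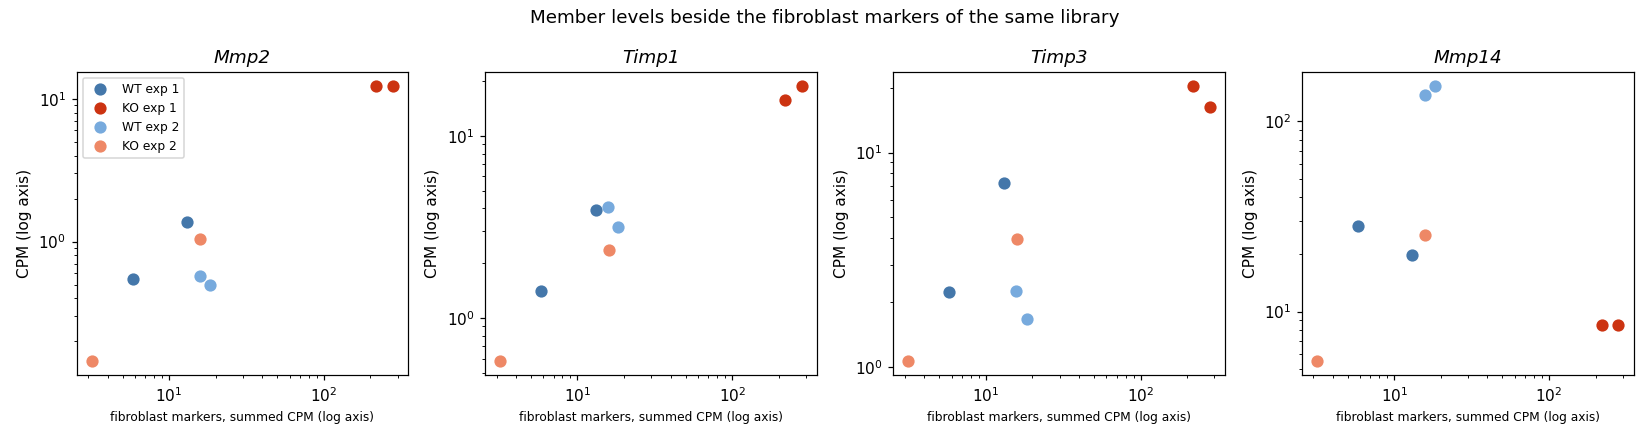
Level of Mmp2, Timp1, Timp3 and Mmp14 (CPM, log axis) against the summed CPM of 10 fibroblast markers in the same library (log axis); each point is a library, coloured by genotype and experiment. The 2 KO libraries of experiment 1, at 219 and 281 CPM of markers, hold the highest Mmp2, Timp1 and Timp3, whereas Mmp14 is highest in the WT libraries of experiment 2.

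Of 18 other MMP and TIMP genes with Reck, a membrane-anchored MMP inhibitor, 10 were tested. In experiment 1, 2 fell and 5 rose, beside 27.4% and 26.8% of all genes tested. Of those 5, 5 were highest in KO libraries 5 and 6, where the fibroblast markers summed to 219 and 281 CPM, beside 66.3% of all genes that rose. The part of those cells was not tested. In experiment 2 and in both experiments together 0 passed in edgeR, beside 15.1% and 6.85% of all genes tested. At an unadjusted p under 0.05, 2 and 2 did, beside 32.7% and 25.0%. Mmp1a, Mmp7, Mmp21 and Mmp24 had 0 counts. The genes that rose in experiment 1 included Mmp11 (log2 fold change 2.67, standard error 0.29, edgeR adjusted p = 0.000132) and Mmp23 (4.22, standard error 0.34, edgeR adjusted p = 2.38e-05). Mmp16, another membrane-type MMP, was at 1.26 and 1.16 CPM in KO libraries 5 and 6 and at most 0.137 CPM in the other 6 libraries. Mmp28, also called epilysin, was at 3.33 and 2.44 CPM in WT and 0.883 and 0.891 CPM in KO of experiment 1 and at 1.59 and 0.952 CPM in WT and 2.10 and 4.27 CPM in KO of experiment 2. Like Mmp9, Mmp28 fell in experiment 1 (log2 fold change -1.72, standard error 0.25, edgeR adjusted p = 0.000590) and its effects differed between the experiments (interaction 3.02, standard error 0.57, edgeR adjusted p = 0.00527).

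Of 21 ADAM and ADAMTS genes, the related metalloproteinases that shed cell surface proteins or cleave proteoglycans, 18 were tested. In experiment 1, 5 fell and 11 rose, beside 27.4% and 26.8% of all genes tested. KO libraries 5 and 6 were highest for 7 of the 11, close to the 66.3% among all genes that rose. In experiment 2, 3 fell and 1 rose, beside 8.00% and 7.10% of all genes tested. Adam17, the sheddase that releases TNF and is inhibited by TIMP3, was at 616 and 498 CPM in WT and 312 and 305 CPM in KO of experiment 1, and at 888 and 783 CPM in WT and 467 and 414 CPM in KO of experiment 2. It fell in both experiments, by 0.87 (standard error 0.10, edgeR adjusted p = 0.000369) and by 0.93 (standard error 0.15, edgeR adjusted p = 0.0204) on the log2 scale. In the fit of both together the log2 fold change was -0.89 (standard error 0.11, edgeR adjusted p = 0.00737). Adamts10 rose in the fit of both experiments (log2 fold change 0.70, standard error 0.13, edgeR adjusted p = 0.0274). Adam23 also passed there (edgeR adjusted p = 0.0104) but never exceeded 1.53 CPM. For Adam19 and Adamts4 the effects differed between the experiments (edgeR interaction, adjusted p = 0.00215 and 0.000820). Adamts4, an aggrecanase, was at 3.82 and 7.30 CPM in WT libraries 3 and 4 and at most 0.742 CPM in the other 6 libraries.

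Of 18 genes of the plasminogen system and of other regulators of MMPs, 13 were tested. In experiment 1, 4 fell and 6 rose, beside 27.4% and 26.8% of all genes tested. KO libraries 5 and 6 were highest for 4 of the 6, close to the 66.3% among all genes that rose. In experiment 2, 2 fell and 1 rose, beside 8.00% and 7.10% of all genes tested. Plg, the precursor of plasmin, had 0 counts. Plaur, the urokinase receptor, was at 37.7 and 29.9 CPM in WT and 9.31 and 12.3 CPM in KO of experiment 1, and at 33.7 and 39.7 CPM in WT and 25.6 and 23.2 CPM in KO of experiment 2. It fell in both experiments (log2 fold change -1.66 with edgeR adjusted p = 0.000537, and -0.59 with edgeR adjusted p = 0.0421), less so in experiment 2 (interaction 1.06, edgeR adjusted p = 0.00993). Cd44, a hyaluronan receptor that can hold MMP9 at the cell surface, fell in both experiments as well (-0.58 with edgeR adjusted p = 0.00134, and -0.77 with edgeR adjusted p = 0.0406). Furin, the protease that activates the MMP14 precursor, rose in the fit of both experiments (log2 fold change 0.56, standard error 0.13, edgeR adjusted p = 0.0487). Serpine2, a serine protease inhibitor, rose in experiment 1 (log2 fold change 3.32, standard error 0.16, edgeR adjusted p = 2.41e-06), and its effects differed between the experiments (edgeR interaction, adjusted p = 0.00132).

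For each gene the 2 genes of closest pattern were taken from 11003 genes whose mean log2 CPM was 1 or more, by the root mean square difference of centred log2 CPM over the 8 libraries. For Mmp14 they were Socs3 (0.32) and Cdc42ep2 (0.42), and for Mmp9 Slc39a4 (0.39) and Ccl7 (0.41). For Mmp2 they were Serpinf1 (0.25) and Cyp1b1 (0.25), for Timp1 Tnc (0.29) and Bmp1 (0.38), and for Timp3 Fn1 (0.26) and Lamb1 (0.38). For Mmp12 they were Cpe (0.33) and Pdpn (0.34), for Mmp8 Inhba (0.34) and Fam131a (0.47), and for Mmp13 RP24-468O24.4 (0.085) and Ska3 (0.089). For Mmp19 they were Ttll1 (0.074) and Zbtb14 (0.11), and for Timp2 Rab31 (0.12) and Cbr1 (0.13). Among the 10 genes themselves, the closest pairs were Mmp19 with Timp2 (0.23), Mmp12 with Mmp13 (0.52), Mmp13 with Timp2 (0.55), Mmp8 with Mmp12 (0.59) and Mmp13 with Mmp19 (0.62), and Timp3 was at 0.69 from both Mmp2 and Timp1. Genes that vary little are close to many others on this measure, and all pairs share the same 8 libraries.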

How the data were processed

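The authors deposited raw counts per gene, listed by symbol, for each experiment, together with normalized counts (a signal on the scale of each experiment), which were not used for tests. The submitters' processing notes name STAR 2.7.0f, Subread 1.6.4 with featureCounts, DESeq2 1.22.1 and build GRCm38. The annotation and strand setting are not given in the sources used here. Libraries were made with a stranded mRNA kit. Groups came from the labels. The members and gene lists were chosen with earlier results of these data known.

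Both tables were joined by symbol. Genes passing edgeR's filterByExpr by genotype and experiment (15618 of 53735) were scaled by TMM and tested with edgeR 4.0.16 (glmQLFit, robust, and glmQLFTest) in R 4.3.3, within each experiment, over both with an experiment term, and for their interaction. Standard errors were derived from the log2 fold change and its F statistic. Log2 CPM used a prior count of 2. Exon lengths and places are from GENCODE M21 (GRCm38). Scripts were tested on simulated data. Alternatives were DESeq2 1.42.0, limma-voom (limma 3.58.1), upper-quartile scaling, other filters, thresholds and models, and leaving out each library. Principal transcript length was added after seeing the data. Named genes were all members, in each pathway list the 3 tested genes with the smallest p over both experiments and the 2 with the smallest interaction p, the 2 closest in pattern to each member, and the 2 most abundant markers of each list and those at 0. A gene that this rule names is not reported here.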

Additional observations from a re-analysis of the deposited data

Results flagged for a closer look

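Mmp2 in WT was flagged because WT library 2 lay apart from the other 3 WT libraries in log2 CPM. Its gap to the nearest of them was 0.854 of the whole range, above the critical value of Dixon's test for 4 samples, with levels of 0.542, 1.38, 0.494 and 0.577 CPM in WT libraries 1 to 4. Chance flags about 1 in 20 groups, and 20 groups were examined.

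For 4 genes the difference between KO and WT differed between the 2 experiments in edgeR's interaction test. Mmp2 differed by -3.54 on the log2 scale (adjusted p = 0.0257), from 3.70 in experiment 1 to 0.16 in experiment 2. Mmp9 differed by 3.75 (edgeR adjusted p = 0.00135), from -3.03 to 0.74. Mmp19 differed by 0.97 (edgeR adjusted p = 0.0392), from -0.11 to 0.87. Timp1 differed by -4.01 (edgeR adjusted p = 0.00850), from 2.71 to -1.29. Experiment is a batch here, and which differences between the batches lie behind these values was not tested.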

How the results depend on the processing

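The count of genes past the threshold in experiment 1 (4 of 10) stayed between 3 and 5 under the alternatives that kept all libraries, and between 4 and 6 with a library left out. In experiment 2 the count went from 0 to 2 with DESeq2, 1 with upper-quartile scaling, 1 with at least 10 counts in every library, 1 with limma-voom and 2 with all 4 groups in 1 fit, and lay between 0 and 2 with a library left out. In both experiments together it went from 0 to 1 with DESeq2, 1 with limma-voom and 3 for the mean of the 2 effects in the fit with the interaction, and lay between 0 and 1 with a library left out. The interaction count went from 4 to 9 with no filter (23.9% of all genes) and to 2 at an adjusted p under 0.01, and lay between 1 and 5 with a library left out. Log2 fold changes turned direction for genes that had not passed. With all libraries kept, Mmp19 in experiment 1 went to 0.0012 with upper-quartile scaling, Mmp12 in experiment 1 to -0.0028 with no filter and -0.013 with limma-voom, and Mmp2 in experiment 2 to -0.43 with limma-voom. With a library left out, the values of experiment 1 ran from -0.31 to 0.28 for Mmp12, from -0.071 to 0.43 for Mmp8 and from -0.37 to 0.017 for Mmp13. Those of experiment 2 ran from -1.86 to 0.97 for Mmp2, from -2.00 to 0.045 for Mmp12 and from -0.88 to 1.002 for Timp3. Those of both experiments ran from -0.67 to 0.10 for Mmp8, from -0.71 to 0.036 for Mmp12 and from -0.13 to 1.62 for Timp1, and the interaction of Mmp12 from -2.02 to 0.016. The causes were not tested.

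Over all genes, the 2358 calls of experiment 2 became 300.0 at an adjusted p under 0.01, 4955 with 4 groups in 1 fit, 562 without WT library 3, 1166 without WT library 4, 875 without KO library 7 and 293 without KO library 8. The 1070 calls of both experiments together became 2557 with DESeq2, 197 at an adjusted p under 0.01, 4962 for the mean of the 2 effects, 4 with no experiment term, and between 231 and 542 without WT library 1, 2 or 4 or KO library 5, 6 or 7. The 6217 interaction calls became 3372 at an adjusted p under 0.01. Single-gene values kept their direction and side of the threshold in 447 cases, gained the call in 34, lost it in 20 and turned direction in 15.

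With 2 libraries per genotype in an experiment, a fit without a library assumes that the lone sample varies like the others. Mmp2 was left out by the filter of at least 10 counts in every library. Low counts limit Mmp2, which had 6 counts in KO library 8. No paired analysis was made because the labels give no pairing of WT and KO libraries.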

Other observations

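The macrophage markers themselves differed by genotype within the experiments. Of 10 tested, 3 fell and 6 rose in experiment 1, 2 fell and 2 rose in experiment 2, and 1 rose in the fit of both experiments together, by edgeR at an adjusted p under 0.05. Among all genes tested, 27.4% fell and 26.8% rose in experiment 1, 8.00% and 7.10% in experiment 2, and 3.26% and 3.59% in both together. Adgre1 fell in experiment 1 and rose in experiment 2 (log2 fold change -2.13 and 0.91, edgeR adjusted p = 4.86e-06 and 0.0246), and so did Itgam (-1.05 and 1.34, edgeR adjusted p = 4.86e-06 and 0.0338), an integrin named after its values were seen. Other markers, also named after their values were seen, went the opposite way. Csf1r rose in experiment 1 and fell in experiment 2 (0.80 and -1.28, edgeR adjusted p = 0.000994 and 0.0281). Cd68, Fcgr1, C1qa and C1qb rose in experiment 1 (0.72, 0.50, 1.58 and 1.44). In experiment 2 they were at -0.50, -0.17, -1.02 and -0.78 without passing. Of 8 osteoclast markers, 6 were tested. In experiment 1, 1 fell and 2 rose, and in experiment 2, 1 fell and 2 rose, beside the shares of all genes given above. Their sum, led by Atp6v0d2 and Nfatc1, was highest in KO libraries 5 and 6 (174 and 168 CPM) and WT library 4 (167 CPM), and between 60.8 and 83.8 CPM in the other 5 libraries. That peak rested mainly on Atp6v0d2, at 103, 96.8 and 117 CPM in those 3 libraries and 11.9 to 37.1 CPM elsewhere. Nfatc1 was at 56.7, 56.8 and 23.8 CPM there, beside 23.6 to 34.1 CPM elsewhere. Acp5 was at 5.17, 4.28 and 4.44 CPM there, beside 3.10 to 16.1 CPM elsewhere. Ctsk was at 8.62, 9.45 and 16.8 CPM there, beside 6.05 to 17.2 CPM elsewhere. The remaining markers reached at most 3.06 CPM. Mmp12 in those 3 libraries was at 236, 355 and 599 CPM, beside 98.9 to 309 CPM in the other 5. Of 8 dendritic cell markers, 3 were tested, and 1 fell in experiment 2. Of 10 neutrophil markers, 1 (S100a8) was tested, and it fell in experiment 1 (log2 fold change -2.26) and was at 1.52 on the log2 scale in experiment 2 without passing (edgeR adjusted p = 0.174). The part of these cell types in the levels of MMPs and TIMPs was not tested.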
